A study of Mus musculus with 13 samples.

Results

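The endoplasmic reticulum (ER) folds and inspects the proteins a cell secretes, and 35 genes of its chaperones and stress response were followed here through a mouse bone marrow RNA-seq study. They were taken by gene symbol from the deposited expression table, all 35 were found among its 33432 gene entries, and all 35 passed the filter on low values (at least 1 FPKM in at least 3 libraries). They comprise 3 stress sensors, 3 transcription factors, 5 chaperones, 4 protein disulfide isomerases, 3 J-domain cochaperones, 8 genes of ER-associated degradation, 3 of protein translocation, 3 small luminal or secreted stress proteins and 3 targets of the ATF4 branch. The libraries were made from polyadenylated RNA of cells labelled mesenchymal stromal cells (MSCs), isolated by sorting from C57BL/6 mice, out of the nucleated cells of their marrow and compact bones. There are 3 libraries labelled healthy, from control mice, 6 labelled pre-leukemic, from pre-leukemic mice, and 4 labelled recovered, taken here to be those of the pre-leukemic mice that had been treated with MSCs. The sources used here do not give the leukemia model, the age of the mice, the sorting markers or whether each library came from a separate animal. The p-values therefore measure only how these libraries spread, which may in part be technical.

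When unfolded proteins build up in the ER lumen, 3 sensors in its membrane respond: Ern1 (IRE1) splices the Xbp1 messenger RNA into the form that encodes an active transcription factor, Eif2ak3 (PERK) phosphorylates eIF2 and thereby favours translation of Atf4, and Atf6 is carried to the Golgi and cut to release a factor. XBP1 is known for inducing the degradation and translocation machinery and is required in cells that secrete heavily, such as plasma cells, whereas ATF6 and ATF4 induce chaperones and amino acid metabolism. Transcript levels report neither the splicing of Xbp1 nor the translation of Atf4.

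The pre-leukemic libraries stood apart from the others in the markers of cell types. The share of summed FPKM in immunoglobulin genes was 54.92 to 80.47% in pre-leukemic libraries and at most 0.1338% in any other. The immunoglobulin gene Igkc was listed at 0 in pre-leukemic 1 and 2, whose shares were 54.92 and 55.33%. In pre-leukemic 3 to 6 it was at 966100 to 1668000 FPKM. All 12 stromal markers examined fell in pre-leukemic against healthy libraries, with summed levels of 278.7 to 1113 against 20730 to 23440 FPKM, and all 12 rose again in recovered libraries (10950 to 11850 FPKM). All 16 pan-leukocyte markers rose in the pre-leukemic libraries (3274 to 4794 FPKM in sum, against 152.2 to 199.3 in healthy and 83.75 to 371.3 in recovered), as did all 10 plasma cell markers tested (70990 to 217000 FPKM in sum, against 81.41 to 89.84 and 71.05 to 229.2). Of the plasma cell markers, Prdm1, Tnfrsf17, Ighg2c and Fcrl5 were listed at 0 in every healthy and every recovered library. Sdc1, Mzb1, Ighm, Pou2af1 and Irf4 were above 0 in each of these libraries, with Sdc1 at 27.3 to 33.0 FPKM in healthy ones. Markers of T and NK cells (9 of 10 higher), neutrophils (7 of 10) and monocytes (5 of 7) also rose, none of 5 endothelial markers did, and 6 erythroid markers summed to 1413 to 2231 FPKM in recovered libraries against 31.22 to 40.9 in healthy and at most 1.148 in pre-leukemic ones. These shifts move with both comparisons below that hold pre-leukemic libraries. Between recovered and healthy libraries, only Hba-a1, Hba-a2, Hbb-bs and Lcn2 of the markers tested rose, and none fell. The part of the marker shifts in the results was not tested. In such bulk libraries fewer cells of a type and less RNA per cell cannot be told apart. Healthy 1 and healthy 3 differed by less than the sampling noise over 293 well-covered genes (chi-square per gene 0.9819, p = 0.5764; at least 18.0 in the other 23 pairs of libraries of one group) and by far less than any other pair over 435 genes of lower counts (1.276, p = 8.255e-05, against at least 8.5), and they were counted as 1 sample. A single read on a 1 kb transcript was worth 0.173 to 0.2571 FPKM in the pre-leukemic group, 0.3199 to 0.3957 FPKM in the healthy one and 0.3504 to 0.6382 FPKM in the recovered one, which sets the precision of low values. Recovered 3 correlated least with its group (Pearson's r of 0.831 to 0.849 across genes), and pre-leukemic 1 and 2 differed from pre-leukemic 3 to 6 in Pdia4, below.

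Differences are limma estimates on log2(FPKM + 1), a scale that understates the change of low genes, and a gene is said to rise or fall where its p adjusted over all 13118 genes tested was under 0.05. Against healthy libraries, 14 of the 35 genes rose in pre-leukemic libraries (40.0%, against 14.2% of all genes tested) and 4 fell (11.4%, against 13.1%, which is near the background). Their median difference was 1.02, against 0.20 over all genes. From pre-leukemic to recovered, 14 fell (40.0%, against 25.1%) and 4 rose (11.4%, against 14.8%, again near the background), with a median of -0.72 against -0.41 over all genes. Recovered and healthy libraries differed in 2 of the 35, both higher (5.71%, against 0.518%), and none was lower (against 1.99%), also without adjustment of the p-values. Every pre-leukemic library lay above every healthy one for 17 genes (48.6%, against 23.7% of all genes) and below for 5 (14.3%, against 20.6%). Every recovered library lay above every pre-leukemic one for 4 (11.4%, against 10.7%) and below for 11 (31.4%, against 16.5%), and every recovered library lay above every healthy one for 14 (40.0%, against 6.64%) and below for 1 (2.86%, against 10.7%), which was Derl2. The 3 comparisons share libraries and are not independent of each other. The 35 genes were chosen with earlier results of these data known. Their shares beside those of all genes are therefore a description and no test of an excess. The same holds for the roles and for the wider list below. Leaving out pre-leukemic 1 and 2 gave 12 higher and 3 lower genes in pre-leukemic against healthy and 4 higher and 13 lower in recovered against pre-leukemic. Without recovered 3 the last comparison gave 5 higher and 14 lower. Of the 14 higher and 4 lower genes in pre-leukemic against healthy libraries, leaving out healthy 2 gave 11 and 1, and leaving out any one of pre-leukemic 3, 4 and 5 gave 2 lower.

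**Figure D1:**
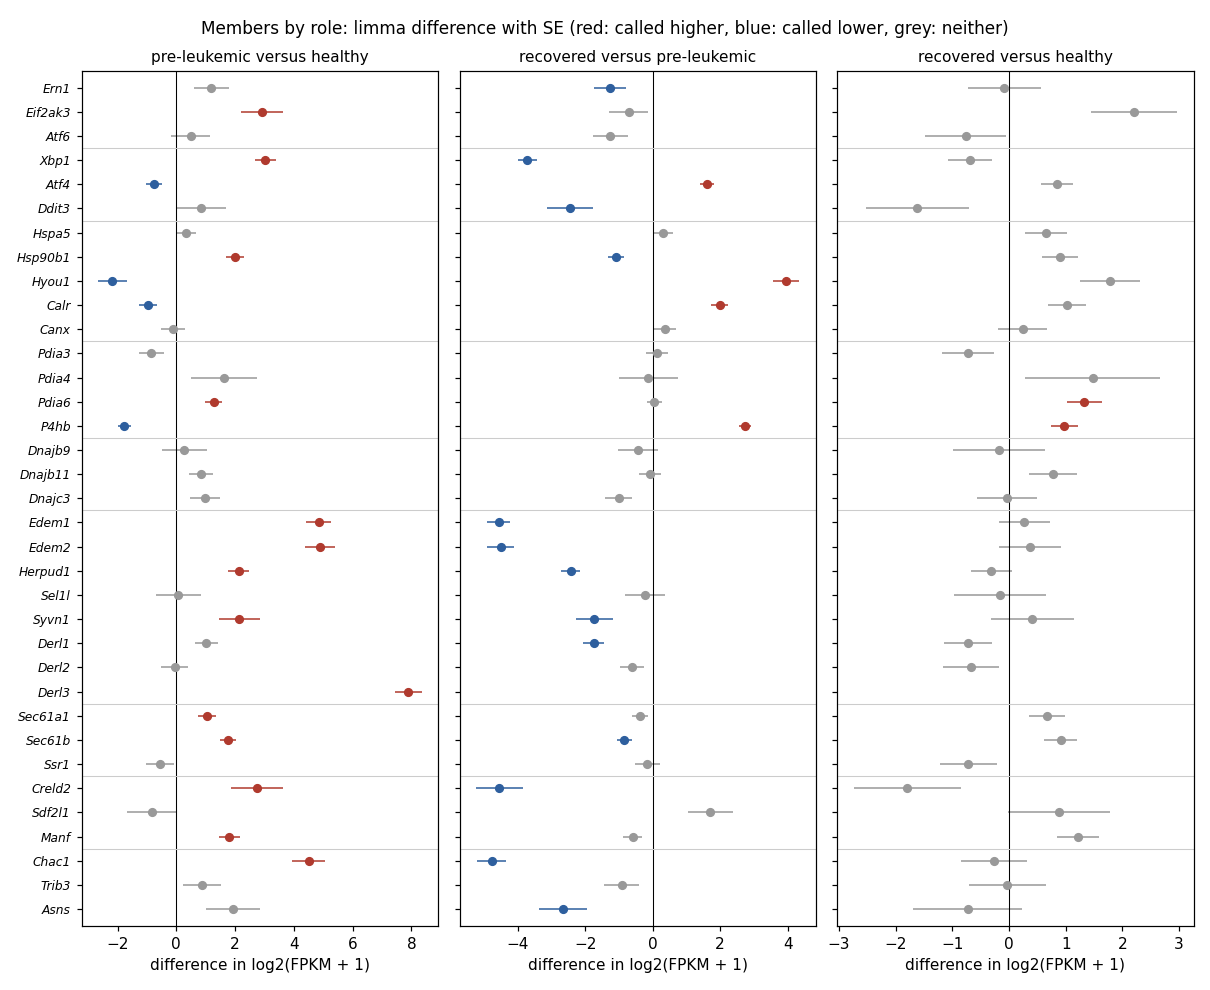
Difference in log2(FPKM + 1) with its SE for each of the 35 genes (rows, grouped by role between the grey lines) in the 3 comparisons, with separate horizontal axes. Red points are genes called higher and blue points genes called lower; Edem1, Edem2, Derl3 and Chac1 lie farthest to the right in the left panel, and Hyou1 and P4hb farthest to the left. Derl3 is not drawn in the panels with recovered libraries, where it is listed at 0.

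Of the sensors, only Eif2ak3 rose in pre-leukemic libraries. Eif2ak3 was at 0.336, 2.13 and 0.582 FPKM in the healthy libraries, at 6.15 to 29.9 FPKM (median 15.2) in the pre-leukemic ones and at 6.83, 3.99, 33.8 and 5.89 FPKM in the recovered ones. Its difference from healthy to pre-leukemic was 2.92 ± 0.72 (SE; adjusted p = 0.00769), with no overlap between the groups, and that from pre-leukemic to recovered was -0.72 ± 0.57 (SE; adjusted p = 0.332), where recovered 1 lay within the pre-leukemic range and recovered 3 above it. Ern1 was low throughout. In the healthy libraries Ern1 stood at 1.595, 0.695 and 1.93 FPKM, in the pre-leukemic ones at 2.74 to 5.45 FPKM (median 3.94), and in the recovered ones at 0, 4.54, 0.374 and 1.29 FPKM. All pre-leukemic libraries lay above all healthy ones, yet the difference was 1.19 ± 0.60 (SE; adjusted p = 0.158) and did not pass. From pre-leukemic to recovered libraries Ern1 fell, with a difference of -1.28 ± 0.47 (SE; adjusted p = 0.0452), although recovered 2 lay within the pre-leukemic range; the call ended without healthy 2, without any single pre-leukemic library, and without recovered 1, 3 or 4 (adjusted p of 0.0524 to 0.136; 0.00488 to 0.629 over all alternatives). It also ended after quantile normalization (-0.64, adjusted p = 0.332), on the TPM scale (-0.36, 0.629), where every library's FPKM values are made to sum to the same total, with no filter on low values (0.117) and with only the 2 groups compared (0.0537). Atf6 passed in no comparison (adjusted p = 0.624, 0.0725 and 0.666): it lay at 5.49, 7.78 and 5.55 FPKM in healthy libraries, at 6.92 to 11.3 FPKM (median 9.96) in pre-leukemic ones and spread from 0.657 to 13.8 FPKM over the recovered ones.

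Among the transcription factors, Xbp1 and Atf4 moved in opposite directions. Xbp1 (chr11:5520659-5525893, plus strand) encodes the factor of the IRE1 branch. Xbp1 was at 102, 128 and 94.97 FPKM in the healthy libraries, at 656 to 1302 FPKM (median 940.0) in the pre-leukemic ones and at 71.4, 111, 81.8 and 34.98 FPKM in the recovered ones. The lowest pre-leukemic library lay above the highest of the other 7, and healthy and recovered libraries overlapped. Xbp1 rose by 3.03 ± 0.37 (SE; adjusted p = 3.55e-05) from healthy to pre-leukemic and changed by -3.72 ± 0.29 (SE; adjusted p = 3.08e-07) from there to recovered, and recovered against healthy it differed by -0.69 ± 0.39 (SE; adjusted p = 0.414). Atf4 (chr15:80255184-80257541, plus strand) encodes the factor made when eIF2 is phosphorylated. Atf4 was at 578, 620.0 and 532 FPKM in the healthy libraries, at 289 to 402 FPKM (median 347) in the pre-leukemic ones and at 777, 1085, 1751 and 846 FPKM in the recovered ones. The 3 groups did not overlap, with the pre-leukemic libraries lowest and the recovered ones highest. Atf4 changed by -0.77 ± 0.27 (SE; adjusted p = 0.0463) from healthy to pre-leukemic and by 1.61 ± 0.21 (SE; adjusted p = 3.49e-05) from pre-leukemic to recovered. The first of these calls was fragile: it ended without healthy 1 or 2, without any single one of pre-leukemic 1 to 5 and without recovered 2 (adjusted p of 0.0541 to 0.278), after quantile normalization (0.0723) and with no filter on low values (0.152), out of 0.000303 to 0.278 over all its alternatives. Ddit3 (CHOP), a factor linked to cell death under lasting ER stress, was at 62.6, 25.5 and 64.8 FPKM in healthy libraries and at 33.98 to 104 FPKM (median 75.9) in pre-leukemic ones, a difference of 0.84 ± 0.85 (SE; adjusted p = 0.499). It fell in recovered libraries (60.9, 10.1, 1.56 and 17.6 FPKM; difference -2.46, SE 0.68, adjusted p = 0.0101), of which recovered 1 lay within the pre-leukemic range; without recovered 1 and without recovered 3 the difference was -3.20 and -1.66. The call ended on the TPM scale (-1.06, adjusted p = 0.309) and with no filter (0.0682), out of 0.000904 to 0.309 over its alternatives. Ddit3 overlaps Mars by 68 exonic bases on the opposite strand, and reads of the 2 genes cannot be told apart there, since no strand setting is stated.

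Promoters of these genes are known for elements that the stress factors read, and those of the 35 were searched for them. The RefSeq promoter table (GRCm38.p6, 250 bases before to 50 after each start) holds 30 of the 35, and not Atf6, Hyou1, Derl1, Sec61a1 or Manf. The ER stress element (ERSE), which is CCAAT, then 9 bases of any kind, then CCACG, on either strand, occurs in 9 of the 30 and in 0.137% of the 27025 genes of the table. Of these 9, Hsp90b1, Pdia6, Syvn1, Derl3 and Creld2 rose in pre-leukemic libraries, Calr fell, and Hspa5, Canx and Dnajc3 did neither. Between pre-leukemic and recovered libraries, 4 of the 9 fell (Hsp90b1, Syvn1, Derl3 and Creld2), Calr rose, and 4 did neither. So the element was present in genes that moved in both directions and in genes that moved in none. A second arrangement, ERSE-II (ATTGG, 1 base of any kind, CCACG; either strand), was found in Herpud1 and Dnajb11 (0.0444% of all genes), and the ATF4-type element CARE (TGATGNAAN, either strand) in Herpud1, Chac1, Trib3 and Asns (4.5% of all genes). The core of the UPRE element, TGACGTGG (either strand), which occurs in 0.714% of all genes, was in none of the 30 windows, which says only that these letters are not there. A match is a description of the letters and not of binding. The windows below run 5′ to 3′ on the strand of the gene with the motif, on either strand, in capitals, and show a gene that rose most (Derl3), others that rose (Hsp90b1, Pdia6, Syvn1, Creld2), the one that fell (Calr) and one that did neither (Hspa5), all with ERSE; Herpud1 with ERSE-II; and Chac1 and Asns with CARE.
Derl3, chr10:75893230-75893272, plus strand: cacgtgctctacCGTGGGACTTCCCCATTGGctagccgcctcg
Hsp90b1, chr10:86705626-86705668, minus strand: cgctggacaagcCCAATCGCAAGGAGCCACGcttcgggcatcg
Pdia6, chr12:17266479-17266521, plus strand: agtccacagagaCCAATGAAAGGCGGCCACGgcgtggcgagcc
Syvn1, chr19:6046520-6046562, plus strand: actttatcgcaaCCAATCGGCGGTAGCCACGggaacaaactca
Creld2, chr15:88819508-88819550, plus strand: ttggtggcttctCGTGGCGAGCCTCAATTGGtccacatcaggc
Calr, chr8:84847063-84847105, minus strand: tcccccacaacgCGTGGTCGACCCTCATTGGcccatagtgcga
Hspa5, chr2:34772013-34772055, plus strand: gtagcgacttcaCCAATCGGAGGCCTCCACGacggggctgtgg
Herpud1, chr8:94386365-94386399, plus strand: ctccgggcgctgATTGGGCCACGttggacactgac
Chac1, chr2:119351036-119351068, plus strand: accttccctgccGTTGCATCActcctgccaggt
Asns, chr6:7693212-7693244, minus strand: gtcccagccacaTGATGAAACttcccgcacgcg
Derl3, Creld2 and Calr carry ERSE in the orientation opposite to the gene, and Hsp90b1 holds 2 copies, of which the one farther from the start is shown. The distance of the motif from the start, counted back from the start base at 0, is -156 to -138 in Derl3, -65 to -47 in Hspa5 and -44 to -26 in Syvn1.

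The 5 chaperones split. Hsp90b1 (GRP94), a folding factor for integrins, Toll-like receptors and immunoglobulin chains, rose in pre-leukemic libraries, whereas Hyou1 and Calr fell. Hsp90b1 was at 106, 90.3 and 99.4 FPKM in the healthy libraries, at 285 to 566 FPKM (median 358) in the pre-leukemic ones and at 167, 209.7, 163 and 183 FPKM in the recovered ones. The 3 groups did not overlap, and recovered libraries lay between the others. Hsp90b1 differed by 1.99 ± 0.30 (SE; adjusted p = 0.000239) from healthy to pre-leukemic and by -1.10 ± 0.24 (SE; adjusted p = 0.00237) from pre-leukemic to recovered. On the TPM scale both calls ended (adjusted p of 0.659 and 0.536) and the second difference turned to 0.37.

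Hyou1 (chr9:44379490-44392369, plus strand) encodes GRP170, the nucleotide exchange factor of the main ER chaperone BiP. In the healthy libraries Hyou1 stood at 15.1, 18.4 and 16.3 FPKM, in the pre-leukemic ones at 1.86 to 4.77 FPKM (median 3.08), and in the recovered ones at 38.4, 54.7, 121 and 54.3 FPKM. Every pre-leukemic library was below every healthy one and every recovered library above, with recovered 3 highest. Hyou1 changed by -2.17 ± 0.50 (SE; adjusted p = 0.00476) from healthy to pre-leukemic and rose by 3.96 ± 0.39 (SE; adjusted p = 2.88e-06) from there to recovered. Without healthy 2, which leaves the mean of healthy 1 and 3 alone in its group, the first of these had an adjusted p of 0.0582 (0.000219 to 0.0582 over its alternatives). Calr (chr8:84841850-84846934, minus strand) encodes calreticulin, a lectin chaperone that holds glycoproteins and binds calcium. Calr was at 139, 144 and 138 FPKM in the healthy libraries, at 56.9 to 103 FPKM (median 63.1) in the pre-leukemic ones and at 228, 294, 301 and 333 FPKM in the recovered ones. The groups did not overlap and stood in the same order as for Hyou1. Calr changed by -0.97 ± 0.32 (SE; adjusted p = 0.0346) from healthy to pre-leukemic and by 1.98 ± 0.25 (SE; adjusted p = 2.57e-05) from pre-leukemic to recovered. The fall was lost without healthy 2 or without any single one of pre-leukemic 3 to 6 (adjusted p of 0.0536 to 0.174) and when immunoglobulin genes were left out of the sum used for scaling (0.0595), out of 0.00169 to 0.174 over the alternatives.

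Hspa5, which encodes BiP and is the usual readout of ER stress, passed the test in no comparison. Hspa5 was at 188, 199 and 199.6 FPKM in the healthy libraries, at 154 to 372 FPKM (median 271) in the pre-leukemic ones and at 317, 344, 303 and 272 FPKM in the recovered ones. Pre-leukemic libraries lay on both sides of the healthy ones, and the difference was 0.33 ± 0.35 (SE; adjusted p = 0.514). Every recovered library was above every healthy one, without passing the test (adjusted p = 0.421). Recovered against pre-leukemic libraries differed by 0.31 ± 0.28 (SE; adjusted p = 0.382) as deposited and by 1.78 on the TPM scale, where this difference passed (adjusted p = 0.00488); there, pre-leukemic against healthy was at -1.33. Canx, the membrane-bound relative of calreticulin, was at 73.2, 80.5 and 78.3 FPKM in healthy libraries and 56.99 to 87.8 FPKM (median 71.7) in pre-leukemic ones, and its recovered libraries ran from 41.7 to 143 FPKM. Its differences of -0.12 and 0.35 in the comparisons with pre-leukemic libraries did not pass (adjusted p = 0.861 and 0.403).

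**Figure D2:**
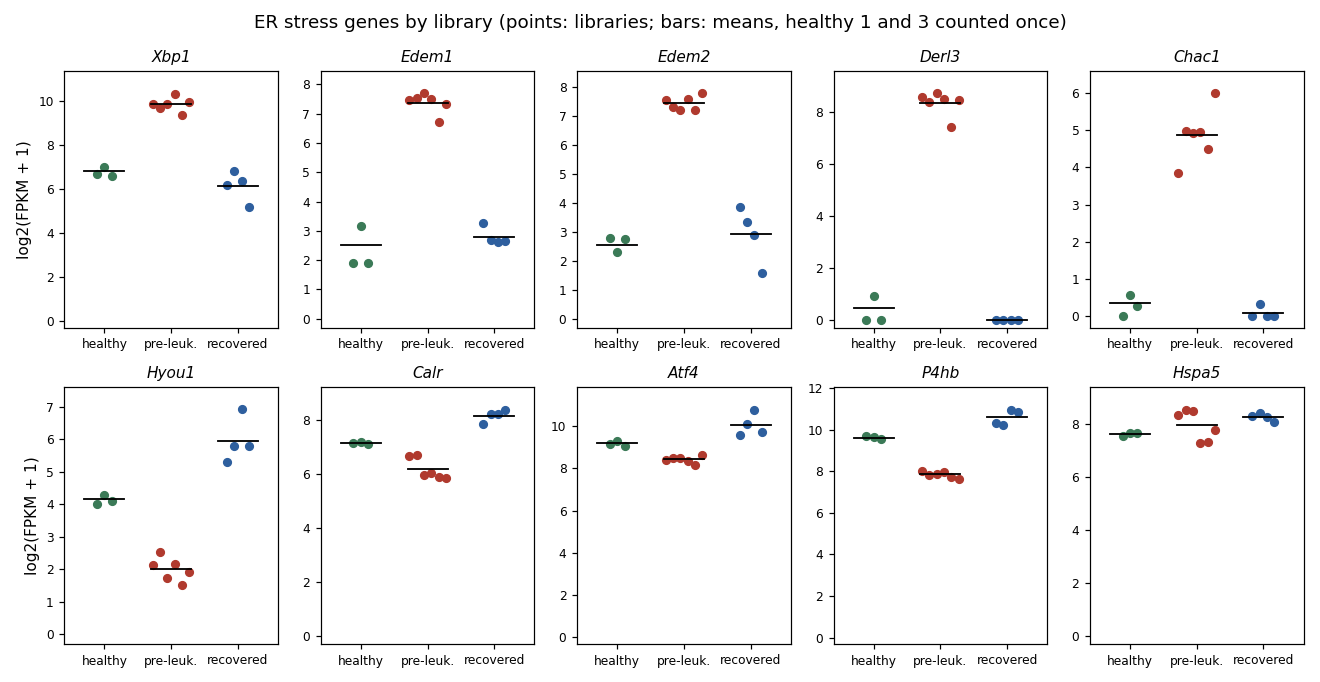
Level of 10 of the genes in each library as log2(FPKM + 1), each panel with its own axis that includes 0; points are libraries (green healthy, red pre-leukemic, blue recovered) and bars are group means with healthy 1 and 3 counted once. The pre-leukemic points lie above all others for Xbp1, Edem1, Edem2, Derl3 and Chac1 and below all others for Hyou1, Calr, Atf4 and P4hb, and they overlap the others for Hspa5.

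The disulfide isomerases, which form and reshuffle disulfide bonds in new proteins, also divided. P4hb, which in addition serves as a subunit of collagen prolyl hydroxylase, was among the most abundant of the 35. P4hb was at 817, 794 and 746 FPKM in the healthy libraries, at 195 to 259 FPKM (median 232) in the pre-leukemic ones and at 1290.0, 1196, 1993 and 1849 FPKM in the recovered ones. The pre-leukemic libraries were the lowest and the recovered ones the highest, with no overlap. P4hb changed by -1.77 ± 0.22 (SE; adjusted p = 5.01e-05) from healthy to pre-leukemic and by 2.75 ± 0.18 (SE; adjusted p = 5.8e-08) from pre-leukemic to recovered, and both calls were kept under every alternative. Pdia6 (P5), by contrast, rose. In the healthy libraries Pdia6 stood at 50.4, 50.9 and 49.6 FPKM, in the pre-leukemic ones at 99.2 to 163 FPKM (median 121), and in the recovered ones at 119.6, 121, 129.9 and 142 FPKM. Healthy libraries lay below all others, and pre-leukemic and recovered ones overlapped. The rise in pre-leukemic libraries was 1.28 ± 0.29 (SE; adjusted p = 0.00474), and the step from there to recovered was 0.05 ± 0.23 (SE; adjusted p = 0.894). On the TPM scale the rise became -0.37 (adjusted p = 0.584). Pdia3 (ERp57), the partner of calreticulin, lay at 44.00, 44.9 and 45.2 FPKM in healthy libraries and at 15.02 to 33.5 FPKM (median 25.2) in pre-leukemic ones, all lower, with a difference of -0.85 ± 0.43 (SE; adjusted p = 0.158) that did not pass. Pdia4 (ERp72) was split within the pre-leukemic group. Pre-leukemic 1 and 2 held 5.19 and 5.06 FPKM of it, while the other 4 libraries of the group held 47.2 to 165 FPKM, against 11.3, 15.4 and 7.86 FPKM in the healthy and 36.9, 34.1, 47.8 and 27.2 FPKM in the recovered libraries. The group difference of 1.61 ± 1.12 (SE; adjusted p = 0.311) averages over these 2 levels; without pre-leukemic 1 and 2 it was 2.96, given without a test because this gene helped to set them apart. Both of these libraries list Igkc, which encodes an immunoglobulin constant region, at 0 FPKM.

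None of the 3 J-domain cochaperones, which stimulate BiP, passed the test in any comparison. Dnajc3 (P58IPK) was at 22.4, 23.8 and 23.9 FPKM in healthy libraries and 31.95 to 63.2 FPKM (median 47.9) in pre-leukemic ones, all higher, a difference of 0.98 ± 0.50 (SE; adjusted p = 0.165). Dnajb11 (ERdj3) differed by 0.85 ± 0.40 (SE; adjusted p = 0.133) and Dnajb9 (ERdj4) by 0.27 ± 0.76 (SE; adjusted p = 0.828), with overlapping groups. Recovered 3 was lowest of all libraries for Dnajb9, at 11.4 FPKM. From pre-leukemic to recovered libraries Dnajb11 differed by -0.08 as deposited and by 1.36 on the TPM scale.

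ER-associated degradation, which extracts misfolded proteins from the ER and hands them to the proteasome, held the largest rises. In pre-leukemic libraries 5 of these 8 genes rose and none fell (14.2% and 13.1% of all genes), with a median difference of 2.13. From there to recovered libraries 6 of 8 fell and none rose (25.1% and 14.8% of all genes), with a median of -2.09. The wider list below holds 16 other genes of this pathway, of which 1 rose and 1 fell in pre-leukemic libraries, with a median of 0.33. From pre-leukemic to recovered, 4 of the 16 fell and 1 rose. Derl3 belongs to the derlin family of channel components and is known for its high level in secretory cells. Derl3 was at 0, 0.9 and 0 FPKM in the healthy libraries, at 170.2 to 421 FPKM (median 360.0) in the pre-leukemic ones and at 0, 0, 0 and 0 FPKM in the recovered ones. It was detected in all pre-leukemic libraries and, outside them, in healthy 2 alone. Derl3 rose by 7.89 ± 0.45 (SE; adjusted p = 5.07e-08), and recovered libraries were lower than pre-leukemic ones with an adjusted p of 9.28e-10; no fold is given against a group at 0. Edem1 (chr6:108828641-108859356, plus strand) encodes a lectin that marks misfolded glycoproteins for removal. In the healthy libraries Edem1 stood at 2.72, 7.97 and 2.75 FPKM, in the pre-leukemic ones at 103 to 206 FPKM (median 179), and in the recovered ones at 8.62, 5.399, 5.15 and 5.304 FPKM. The lowest pre-leukemic library exceeded the highest of the others by far, and healthy and recovered libraries overlapped. Edem1 rose by 4.84 ± 0.43 (SE; adjusted p = 2.67e-06), or by 5.47 without healthy 2, and changed by -4.57 ± 0.34 (SE; adjusted p = 2.15e-07) from pre-leukemic to recovered. Edem2 is its relative and starts the trimming of glycans on such proteins. Edem2 was at 5.89, 3.99 and 5.81 FPKM in the healthy libraries, at 145 to 219 FPKM (median 172) in the pre-leukemic ones and at 13.6, 9.21, 6.39 and 1.96 FPKM in the recovered ones. Edem2 rose by 4.88 ± 0.51 (SE; adjusted p = 1.03e-05) and changed by -4.51 ± 0.40 (SE; adjusted p = 1.08e-06) from pre-leukemic to recovered. Calls for Derl3, Edem1 and Edem2 in both comparisons were kept under every alternative.

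Herpud1, a scaffold that gathers the degradation complex, rose from a higher base. Herpud1 was at 149, 186 and 153 FPKM in the healthy libraries, at 425 to 1329 FPKM (median 722) in the pre-leukemic ones and at 117, 155, 117 and 156 FPKM in the recovered ones. Its pre-leukemic libraries lay above all others. The rise was 2.12 ± 0.35 (SE; adjusted p = 0.000417) and the change to recovered -2.43 ± 0.27 (SE; adjusted p = 8.78e-06); both calls ended on the TPM scale only (adjusted p of 0.484 and 0.0634). Syvn1 (HRD1), the ubiquitin ligase at the centre of the pathway, was at 15.2, 3.11 and 16.7 FPKM in healthy, 29.9 to 45.97 FPKM (median 34.6) in pre-leukemic and 18.9, 25.2, 6.57 and 2.83 FPKM in recovered libraries. All pre-leukemic libraries lay above all others, with differences of 2.15 ± 0.69 (SE; adjusted p = 0.0323) and -1.74 ± 0.55 (SE; adjusted p = 0.0208). The first difference was 1.13 without healthy 2; its call ended then and without pre-leukemic 1, 2 or 4 (adjusted p of 0.0527 to 0.452; 0.00582 to 0.571 over the alternatives), and the second without recovered 3 or 4 (0.0512 and 0.069; 0.00721 to 0.692). Both calls also ended on the TPM scale, with no filter and without pre-leukemic 1 and 2. Syvn1 shares 91 exonic bases with Mrpl49 on the opposite strand. Sel1l, the adaptor that holds the ligase, did not pass the test (difference 0.07, SE 0.77, adjusted p = 0.959), and its recovered libraries ranged from 8.33 to 163 FPKM. Of the other derlins, Derl1 was at 57.2, 51.4 and 62.05 FPKM in healthy, 96.4 to 124 FPKM (median 117) in pre-leukemic and 63.9, 39.1, 20.7 and 22.4 FPKM in recovered libraries. Its pre-leukemic libraries lay above all others; the difference from healthy was 1.02 ± 0.40 (SE; adjusted p = 0.0728) and that from pre-leukemic to recovered -1.76 ± 0.32 (SE; adjusted p = 0.000545), and only the second passed. It did not pass on the TPM scale (-0.31, adjusted p = 0.602; 8.69e-05 to 0.602 over the alternatives). Derl2 differed by -0.06 ± 0.46 (SE; adjusted p = 0.939) and -0.61 ± 0.36 (SE; adjusted p = 0.191) and passed in neither.

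Of the 3 translocation genes, which serve the channel that admits proteins to the ER, Sec61b and Sec61a1 rose and Ssr1 did not. Sec61b was at 211, 200.4 and 218 FPKM in the healthy libraries, at 480.4 to 828 FPKM (median 748) in the pre-leukemic ones and at 252, 478, 435 and 444 FPKM in the recovered ones. The groups did not overlap, with healthy libraries lowest and pre-leukemic ones highest, although recovered 2 came close to pre-leukemic 5. Sec61b rose by 1.75 ± 0.27 (SE; adjusted p = 0.000259) and changed by -0.84 ± 0.21 (SE; adjusted p = 0.00631) from pre-leukemic to recovered. Sec61a1, the pore itself, was at 68.3, 51.8 and 64.1 FPKM in healthy and 104 to 144 FPKM (median 124) in pre-leukemic libraries (difference 1.05, SE 0.30, adjusted p = 0.0184), and its recovered libraries, at 74.7, 95.3, 129 and 81.8 FPKM, overlapped the latter. The call ended without healthy 2 (adjusted p = 0.157; 0.00267 to 0.314 over the alternatives). Ssr1, of the translocon-associated complex, differed by -0.56 ± 0.47 (SE; adjusted p = 0.404). Directions in this group depend on the scale: on the TPM scale Sec61a1 was at -0.60 in pre-leukemic against healthy libraries, and Sec61a1, Sec61b and Ssr1 were at 1.07, 0.63 and 1.26 in recovered against pre-leukemic ones.

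The small stress proteins of the lumen or secreted from it gave 2 rises among 3. Manf, a secreted factor released on loss of ER calcium, rose; its exons overlap those of Dcaf1 by 146 bases on the opposite strand. In the healthy libraries Manf stood at 120.4, 84.6 and 113 FPKM, in the pre-leukemic ones at 252 to 561 FPKM (median 314), and in the recovered ones at 192, 292, 285 and 181 FPKM. Pre-leukemic libraries lay above all healthy ones and overlapped the recovered ones. Manf differed by 1.81 ± 0.35 (SE; adjusted p = 0.00163) from healthy to pre-leukemic and by -0.59 ± 0.28 (SE; adjusted p = 0.107) from there to recovered. Creld2, an ER protein with a disulfide isomerase activity, rose and fell more widely. Creld2 was at 31.5, 53.04 and 30.7 FPKM in the healthy libraries, at 174 to 362 FPKM (median 308) in the pre-leukemic ones and at 27.9, 60.8, 1.94 and 2.91 FPKM in the recovered ones. The pre-leukemic libraries were above all others, and recovered 3 and 4 were lowest. Creld2 rose by 2.75 ± 0.89 (SE; adjusted p = 0.0334) and changed by -4.55 ± 0.70 (SE; adjusted p = 0.000152) to recovered. The rise was lost without healthy 2 or without pre-leukemic 1, 2 or 3 (adjusted p of 0.056 to 0.144; 0.000215 to 0.4 over the alternatives), whereas the fall was kept under every alternative, at -5.33 without recovered 2 and -3.87 without recovered 3. Sdf2l1, a component of BiP complexes, ran from 17.0 to 198 FPKM within the pre-leukemic group, against 90.8, 89.5 and 83.2 FPKM in healthy libraries, and did not pass the test (difference -0.83, SE 0.85, adjusted p = 0.503).

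None of the 3 targets of the ATF4 branch fell with the Atf4 transcript in pre-leukemic libraries, and 1 of them, Chac1, rose. In recovered libraries, where Atf4 rose, none of the 3 rose and 2 fell. The wider list below holds 18 other tested targets, of which 4 rose and 4 fell in pre-leukemic libraries (14.2% and 13.1% of all genes). From pre-leukemic to recovered, 2 of the 18 rose and 3 fell. Chac1, which degrades glutathione and is induced by ATF4, was nearly absent outside the pre-leukemic libraries. In the healthy libraries Chac1 stood at 0, 0.478 and 0.22 FPKM, in the pre-leukemic ones at 13.3 to 62.5 FPKM (median 29.5), and in the recovered ones at 0, 0.269, 0 and 0 FPKM. No pre-leukemic library overlapped the others, and 1 of 3 healthy and 3 of 4 recovered libraries were listed at 0. Chac1 changed by 4.50 ± 0.55 (SE; adjusted p = 3.8e-05) from healthy to pre-leukemic and by -4.77 ± 0.43 (SE; adjusted p = 1.29e-06) from there to recovered, and both calls were kept under every alternative. Asns, asparagine synthetase, was at 2.38, 7.202 and 4.23 FPKM in healthy libraries and at 3.47 to 37.4 FPKM (median 29.4) in pre-leukemic ones, where pre-leukemic 5 alone lay below 23.8 FPKM, within the healthy range. Its difference was 1.92 ± 0.91 (SE; adjusted p = 0.132). It fell in recovered libraries (15.4, 1.95, 0.64 and 1.06 FPKM; difference -2.66, SE 0.72, adjusted p = 0.00913), with a difference of -3.39 without recovered 1. The call ended on the TPM scale (-1.41, adjusted p = 0.163) and with no filter (0.055), out of 0.00113 to 0.163 over its alternatives. Trib3, a pseudokinase that restrains ATF4, was at most 5.71 FPKM in any library and did not pass the test (difference 0.89, SE 0.65, adjusted p = 0.332).

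Xbp1 and Edem1 were then set against Hyou1, Calr and Atf4 within each library, which largely removes the scaling of the library from the comparison. The 5 genes were chosen with their changes known, so the values are a description without a test. The mean log2(FPKM + 1) of Xbp1 and Edem1 minus that of the other three was -2.16 ± 0.48 (SD, n = 2, healthy 1 and 3 counted once) in healthy libraries, 3.08 ± 0.29 (SD, n = 6) in pre-leukemic ones and -3.59 ± 0.62 (SD, n = 4) in recovered ones. Single libraries ran from -2.52 to -1.83, from 2.72 to 3.40 and from -4.15 to -2.86, so the sign differed between the pre-leukemic libraries and all others. As linear ratios of FPKM, Xbp1 over Atf4 was 2.27 to 3.94 in the pre-leukemic group, 0.176 to 0.206 in the healthy one and 0.0414 to 0.103 in the recovered one. Edem1 over Hyou1 went from 0.169 to 0.433 in healthy libraries to between 39.0 and 90.5 in pre-leukemic ones and between 0.0427 and 0.224 in recovered ones. Recovered libraries thus lay below healthy ones in this difference, by -1.42. The step from healthy to pre-leukemic was 5.24 as deposited and 5.16 to 5.39 under the other scalings, and without healthy 2 it was 5.58. A ratio within a library shows unequal change, and not which of its genes changed.

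**Figure D3:**
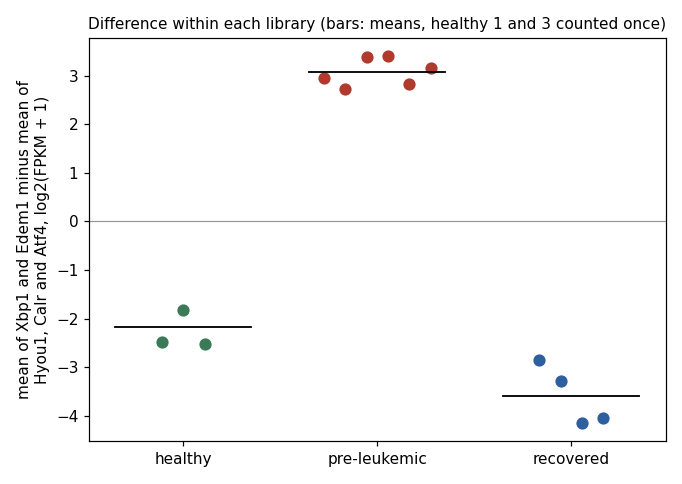
Mean log2(FPKM + 1) of Xbp1 and Edem1 minus the mean of Hyou1, Calr and Atf4 in each library (vertical axis), by group, with bars for group means (healthy 1 and 3 counted once). All 6 pre-leukemic libraries lie above 0, between 2.72 and 3.40, and all healthy and recovered ones below it.

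Few of the 35 genes passed the test between recovered and healthy libraries, where the healthy group counted as 2 samples. Without adjustment of the p-values 9 of the 35 were higher and none lower (p under 0.05), against 752 and 1409 of all 13118 genes. P4hb rose by 0.97 ± 0.24 (SE; adjusted p = 0.0468) and Pdia6 by 1.32 ± 0.31 (SE; adjusted p = 0.0374) over healthy libraries, and every recovered library lay above every healthy one for both. Neither call was secure. That of P4hb ended without healthy 2 or 3, without any single pre-leukemic library and without recovered 3 or 4 (adjusted p of 0.0547 to 0.319; 0.00953 to 0.394 over the alternatives), and that of Pdia6 without healthy 2, without pre-leukemic 1, 2, 3, 5 or 6 and without recovered 4 (0.0504 to 0.203; 0.00737 to 0.306). Hyou1, Manf, Sec61b, Calr, Atf4, Eif2ak3 and Hsp90b1 followed them in order of p-value, with differences of 1.78, 1.22, 0.91, 1.01, 0.85, 2.202 and 0.90, and did not pass (adjusted p of 0.101 to 0.172). These include genes that were low and genes that were high in pre-leukemic libraries. The count of higher genes was 0 to 4 when 1 library was left out, with 4 without recovered 1. The 35 genes had a median difference of 0.25 with Derl3 left out, against -0.08 over all genes tested.

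A wider list held 105 other genes of ER protein handling and the ATF4 branch, of which 104 were tested. Its shares of called genes stayed near the background. In pre-leukemic against healthy libraries 18 rose (17.3%, against 14.2% of all genes) and 14 fell (13.5%, against 13.1%). From pre-leukemic to recovered 13 rose (12.5%, against 14.8%) and 24 fell (23.1%, against 25.1%). Without healthy 2 the first comparison gave 8 and 7, and without pre-leukemic 1 and 2 the second gave 14 lower. By role, 6 of 15 translocation and signal peptide genes rose and none fell, and 6 of 15 folding and oxidation genes rose and 2 fell. Of 12 genes of N-glycosylation and glycan quality control 1 rose and none fell. Of 12 genes of ER to Golgi traffic none rose and 1 fell. The shares of all genes were 14.2% and 13.1%. The 6 translocation genes fell again in recovered libraries, where 25.1% of all genes fell. Over the whole list, every recovered library lay above every healthy one for 17.3% (against 6.64% of all genes) and below for 4.81% (against 10.7%). Every pre-leukemic library lay above every healthy one for 31.7% (against 23.7%) and below for 17.3% (against 20.6%). For recovered against pre-leukemic libraries these shares were 11.5% (against 10.7%) and 12.5% (against 16.5%). Txndc5, a disulfide isomerase, was at 73.1, 100.1 and 72.7 FPKM in healthy and 692 to 1267 FPKM (median 1004) in pre-leukemic libraries (difference 3.48, SE 0.29, adjusted p = 1.7e-06). Ero1lb, an oxidase that recharges the isomerases, went from at most 0.32 FPKM to 9.59 to 15.1 FPKM (median 14.1) (difference 3.48, SE 0.50, adjusted p = 0.000153). The signal peptidase subunits Spcs1 (2.26; adjusted p = 0.000215) and Sec11c (4.18; 0.000254) rose as well, Spcs1 not on the TPM scale (adjusted p = 0.375). In recovered against pre-leukemic libraries Txndc5 (-2.90), Spcs2 (-1.79), Slc3a2 (-1.75), the heavy chain of amino acid transporters, and Ero1lb (-2.72) fell with the smallest p-values (adjusted p of 3.81e-07 to 9.16e-05), of which Spcs2 and Slc3a2 did not pass on the TPM scale (0.546 and 0.54).

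Of 16 genes of stress transcription and eIF2 control, 6 fell in pre-leukemic libraries, none rose and 10 did neither, with a median difference of -0.35. Over all genes tested 13.1% fell and 14.2% rose. Nupr1, a stress-induced chromatin protein, was at 468, 397 and 502 FPKM in healthy, 10.8 to 40.2 FPKM (median 15.1) in pre-leukemic and 387, 605, 476 and 428 FPKM in recovered libraries. Healthy and recovered libraries overlapped, and the pre-leukemic ones lay far below, with differences of -4.53 ± 0.46 (SE; adjusted p = 8.46e-06) and 4.62 ± 0.36 (SE; adjusted p = 3.48e-07). Cebpb, a partner of ATF4 and a regulator of inflammatory genes, was at 50.1, 64.6 and 53.1 FPKM, 3.995 to 8.98 FPKM (median 5.36) and 143, 285, 586 and 348 FPKM in the same order of groups. It fell by 3.13 on the log2 scale (adjusted p = 0.000259) and then rose by 5.50 ± 0.38 (SE; adjusted p = 1.11e-07), to end above healthy libraries (difference 2.37, SE 0.51, adjusted p = 0.0261); the last call ended without healthy 2 (adjusted p = 0.161; 0.00445 to 0.205 over the alternatives). Creb3l1 (OASIS), a stress factor known from bone-forming cells, fell (difference -3.13, SE 0.48, adjusted p = 0.000235). Serpinh1 (HSP47), the collagen chaperone, fell from 239, 285 and 224 to 5.95 to 25.8 FPKM (median 15.9) and stood at 482, 602, 659 and 769 FPKM in recovered libraries, with differences of -4.15 ± 0.48 (SE; adjusted p = 2.43e-05) and 5.41 ± 0.38 (SE; adjusted p = 1.17e-07). Kdelr2, a receptor that returns chaperones from the Golgi, rose by 2.77 ± 0.33 (SE; adjusted p = 1.3e-05) in recovered libraries. In recovered against healthy libraries 1 gene of the list rose (0.962%, against 0.518% of all genes), which was Cebpb, and 2 fell (1.92%, against 1.99%). These were Stc2, a secreted glycoprotein induced by ATF4, at 7.42, 3.28 and 6.38 FPKM in healthy and at most 0.0947 FPKM in recovered libraries (difference -2.51, SE 0.41, adjusted p = 0.00537), and Eif2ak2 (PKR), an eIF2 kinase activated by RNA (difference -2.28, SE 0.52, adjusted p = 0.0347). The call of Eif2ak2 ended without healthy 2 and without pre-leukemic 1, 2 or 5 (adjusted p of 0.053 to 0.33; 0.0101 to 0.33 over the alternatives). Counts of the list in this comparison were 0 higher and 1 lower without healthy 2, 1 lower without pre-leukemic 1, 2 or 5, and 3 higher and 3 lower without recovered 3.

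Some of these calls depended on how the libraries were scaled. The deposited FPKM values summed to 1225000 to 2986000 in pre-leukemic libraries, against 602000 to 626300 in healthy and 624500 to 842500 in recovered ones. Pre-leukemic 1 and 2, which list Igkc at 0, had the lowest sums of their group (1225000 and 1259000). The TPM scale, which makes all sums equal and so divides pre-leukemic 1 and 2 by a total without Igkc, moved the median of all genes. It moved by -1.28 in pre-leukemic against healthy and by 0.99 in recovered against pre-leukemic libraries. Quantile normalization moved it by -0.13 and 0.27, and leaving immunoglobulin genes out of the sum used for scaling by 0.11 and -0.23. Of all genes, 791 rose and 4200 fell in pre-leukemic libraries on the TPM scale, against 1858 and 1725 as deposited, and 5 of the 35 rose and 9 fell on it. On that scale the rises of Eif2ak3, Pdia6, Syvn1, Sec61b, Creld2 and Manf did not pass (adjusted p of 0.0822, 0.584, 0.571, 0.902, 0.4 and 0.861). Those of Hsp90b1, Herpud1 and Sec61a1 were lost there as well. The falls of Ern1, Ddit3, Hsp90b1, Herpud1, Syvn1, Derl1, Asns and Sec61b in recovered libraries did not pass there either, while Hspa5, Sdf2l1, Canx, Pdia3, Pdia6, Dnajb11, Ssr1 and Sec61a1, which passed in that comparison under the deposited values in neither direction, rose. The 5 that rose in pre-leukemic libraries on the TPM scale were Xbp1, Edem1, Edem2, Derl3 and Chac1, which rose under all 4 scalings, and Hyou1 and P4hb fell under all 4. From pre-leukemic to recovered, Atf4, Hyou1, Calr and P4hb rose and Xbp1, Edem1, Edem2, Derl3, Creld2 and Chac1 fell under all 4. Xbp1 was higher in pre-leukemic libraries by 1.36 and Edem1 by 3.29 on the TPM scale, and Hyou1, Calr and Atf4 were at -3.46, -2.62 and -2.43.

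**Figure D4:**
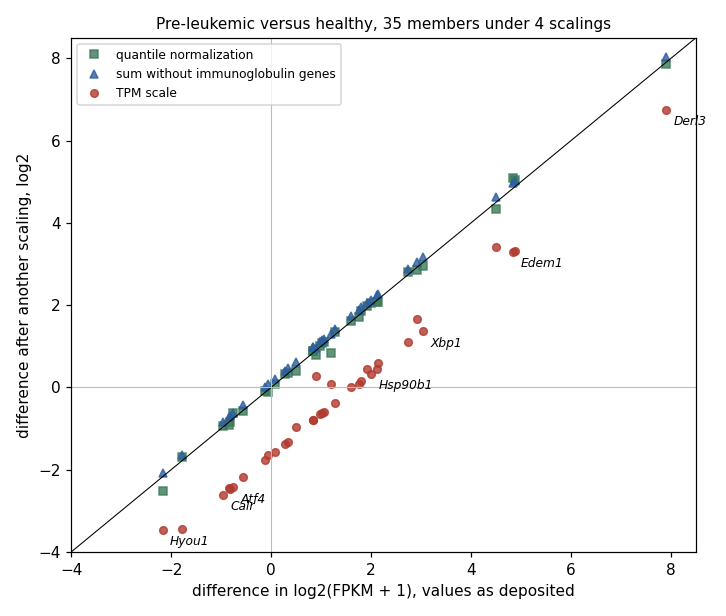
Difference between pre-leukemic and healthy libraries for each of the 35 genes under 3 other scalings (vertical axis, log2) against the difference from the values as deposited (horizontal axis); the line marks equality. Quantile normalization and the sum without immunoglobulin genes stay near the line, and the TPM scale lies below it, with Xbp1, Edem1 and Derl3 above 0 and Hyou1, Calr and Atf4 below 0 in each.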

How the data were processed

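The authors deposited 1 table of FPKM values per gene and library. Per the submitters' processing notes it was made with bcl2fastq, TopHat, Cufflinks 2.2.1 and Cuffnorm on mm10; per the labels' protocols, libraries were prepared with a Nextera XT kit. The sources used here state neither how Cuffnorm scaled the libraries nor whether strand was used. The titles give the groups, and 1 row without a gene name, 0 in every library, was dropped.

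Values were tested as log2(FPKM + 1) with limma 3.58.1 in R 4.3.3 (lmFit, eBayes with trend, 3 groups in 1 fit, 12 samples, 9 residual degrees of freedom) on the 13118 genes that reached 1 FPKM in 3 or more libraries, with Benjamini-Hochberg adjustment over all of them. Total counts were not used here; the worth of 1 read was read from steps in low values of transcripts of at least 800 bp. The 35 genes, the wider list and the markers were chosen with earlier results of these data known. Values per library are given for Xbp1, Edem1, Hyou1, Calr, Atf4 and for called genes among the 12 with the smallest p in a comparison, and of the wider list the 4 called genes with the smallest p in each direction are named. Gene positions come from the GENCODE annotation of GRCm38. The fit was also run on simulated data with 100 genes changed by 3 and 100 by 2 on the log2 scale. These had a mean log2(FPKM + 1) above 2, and the rest of the 13118 were unchanged. Of changes of 3 it called 59% in pre-leukemic against healthy, 75% in recovered against pre-leukemic and 47% in recovered against healthy libraries. For a change of 2 it called 22%, 38% and 16%. More genes were called in the data (1858 higher and 1725 lower in pre-leukemic against healthy), which makes the adjustment less strict there. These shares are therefore not the sensitivity of the tests reported here.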

Additional observations from a re-analysis of the deposited data

Results flagged for a closer look

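Of 72 groups of values examined, 9 held a library whose gap to the nearest other exceeded Dixon's critical value at 95%, and chance alone flags about 1 in 20 groups. Among the pre-leukemic libraries, pre-leukemic 5 was the lowest for Atf6 (6.92 FPKM), Derl3 (170.2 FPKM) and Asns (3.474 FPKM). Pre-leukemic 4 was the lowest for Ddit3 (33.98 FPKM) and the highest for Derl2 (35.61 FPKM). Among the recovered libraries, recovered 1 was the highest for Edem1 (8.618 FPKM) and the lowest for Sec61b (251.6 FPKM). Recovered 2 was the lowest for Dnajc3 (8.121 FPKM), and it was the highest for Chac1 (0.2692 FPKM) because the other 3 were listed at 0. With and without pre-leukemic 5, Derl3 and Edem1 rose from healthy to pre-leukemic libraries.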

How the results depend on the processing

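Among differences of the 35 genes that passed the test as deposited or under the alternative, 7 turned direction, all on the TPM scale: Pdia6 (-0.37) and Sec61a1 (-0.60) in pre-leukemic against healthy libraries, and Hsp90b1 (0.37), Dnajb11 (1.36), Sec61a1 (1.07), Sec61b (0.63) and Ssr1 (1.26) in recovered against pre-leukemic ones. Differences that passed in neither turned as well, for example Hspa5 (-1.33) and Derl1 (-0.63) in pre-leukemic against healthy libraries on the TPM scale, and Hspa5 (-0.11) in recovered against pre-leukemic ones after quantile normalization. On the TPM scale the 35 genes gave 5 higher and 9 lower in pre-leukemic against healthy, 12 higher and 6 lower in recovered against pre-leukemic, and 0 higher in recovered against healthy; the wider list gave 3 higher and 33 lower, then 41 higher and 5 lower. The TPM scale lowers all genes of the pre-leukemic libraries by construction. For the 2 higher calls in recovered against healthy, quantile normalization, a pseudocount of 0.1 and no filter gave 1 each; only the 2 groups compared, the sum without immunoglobulin genes, a minimum mean of 5 FPKM, and leaving out pre-leukemic 1 and 2 (chosen after seeing the data) gave 0; healthy 1 and 3 as separate libraries gave 8. Leaving out 1 library at a time gave 0 to 4 there, 1 to 4 lower and 11 to 15 higher in pre-leukemic against healthy, and 4 to 5 higher and 12 to 15 lower in recovered against pre-leukemic; without healthy 2, the lone healthy sample is assumed to vary like the other groups, and 1 of the 4 lower genes passed. For the wider list the same gave 8 to 24 higher and 7 to 15 lower, 11 to 16 and 18 to 27, and 0 to 3 and 1 to 3 in the 3 comparisons. Only the 2 groups compared gave it 30 higher in pre-leukemic against healthy; no filter, and leaving out pre-leukemic 1 and 2, gave 14 lower each in recovered against pre-leukemic. In recovered against healthy its 1 higher call became 0 with no filter, with only the 2 groups and without pre-leukemic 1 and 2, and 2 with separate libraries; its 2 lower calls became 1 with quantile normalization, a pseudocount of 0.1, only the 2 groups, and without pre-leukemic 1 and 2, and 0 with a mean of at least 5 FPKM. Leaving out 1 library moved the difference of Xbp1 and Edem1 from the other 3 genes between 5.17 and 5.58, -6.90 and -6.47, and -1.67 and -1.08. The causes of these moves were not tested.

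Libraries with the same number share only that number: their deviations correlated at -0.019 to 0.034 over 10 pairs, against -0.042 to 0.037 for other numbers. With the replicate number as a block and separate libraries, 14 of the 35 rose and 2 fell in pre-leukemic against healthy, 0 rose in recovered against healthy, and the wider list gave 1 lower in the latter.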
